A study of Saccharomyces cerevisiae with 3 samples.

Results

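Reb1 is a DNA-binding protein of budding yeast that belongs to the general regulatory factors, and the promoters it binds are described here by their nucleosomes. A gene was taken as bound when it was in the Reb1 list of the study, which rests on binding records of a public database of yeast regulation and not on the libraries analysed here. Of the 242 genes in that list, 22 were left out because they are also ribosomal protein genes, highly transcribed genes or genes with an asymmetric − 1 nucleosome, and 131 others had no row in the part of the table of transcription start sites (TSSs) used here. The remaining 89 genes, of 1971 with exactly 1 listed TSS, lay on all 16 chromosomes, with the most on chromosome VII (14 genes) and the fewest on chromosome XV (1 gene). No TSS of the 1971 genes lay beyond position 305225 of its chromosome. Chromosome counts and shares of all genes therefore refer to this part and not to the whole genome. The comparison genes were 1642 genes with the same exclusions that are not in the Reb1 list.

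The chromatin came from *dst1∆* cells, which lack the gene for the elongation factor TFIIS and were made from BY4741 (MATa, *his3Δ1*, *leu2Δ0*, *met15Δ0*, *ura3Δ0*), and the naked DNA came from BY4741 itself, with *DST1* intact. Both strains share the marker deletions, were grown in YPD and were fixed with formaldehyde. There were 2 libraries of *dst1∆* chromatin, cut gently with micrococcal nuclease (MNase), and 1 of naked DNA, purified before the same enzyme cut it. Wild-type chromatin was not analysed here, so that the effect of the mutation on these promoters was not addressed, and nothing in the labels says whether the 2 chromatin samples came from separate cultures. The question addressed is how the MNase pattern of chromatin differs from that of bare DNA at promoters with a Reb1 record.

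General regulatory factors such as Reb1, Abf1 and Rap1 bind short DNA sequences in promoters and keep nucleosomes away from their sites, together with chromatin remodelers. The gap they help to hold open upstream of the TSS is the nucleosome-depleted region (NDR), bordered by the + 1 nucleosome at the start of the gene and the − 1 nucleosome upstream. Reb1 is also known for its role at the ribosomal DNA, where it binds near the end of the transcribed unit, and for its part in stopping RNA polymerase II at its sites.

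The *dst1∆* replicates held 10776646 and 9049024 mapped reads, and the naked DNA library 16618987, which gave 32.2-fold, 34.6-fold and 49.7-fold coverage. The first *dst1∆* replicate and the naked DNA were sequenced with 36-nt reads on the same type of instrument and the second replicate with 50-nt reads on another, so that replicate and instrument cannot be told apart. The longest stretch with no read in either *dst1∆* replicate, among those with at least 50 reads of naked DNA, ran over 531 bp of chromosome VII (417880 to 418410 of sacCer2), where naked DNA had 631 reads. It was not matched to a gene here, because the gene table is of another build, and *DST1* has no TSS in the part used. Signals are numbers of fragments over 81 bp around each fragment centre, scaled to a genome mean of 100, and "raw" means that naked DNA was not subtracted. With 1 library of naked DNA and 2 of chromatin, no test over samples can be made and no p-value is given. Genes of 1 library are not replicates, and a low signal in every cell cannot be told apart from an absent nucleosome in some of the cells.

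Chromatin of the Reb1-bound promoters had a deeper gap upstream of the TSS than that of the comparison genes in both replicates. In the NDR window, from 150 to 1 bp upstream, raw *dst1∆* chromatin averaged 28.4 in replicate 1 and 28.7 in replicate 2 over the 89 promoters, against 35.9 and 35.0 over the comparison genes. The log2 ratio was -0.31 ± 0.04 (SD, n = 2). Naked DNA was low there as well, with a mean of 58.9 in the Reb1-bound promoters and 69.0 in the comparison genes, a log2 ratio of -0.23. Chromatin over naked DNA gave a log2 ratio of -1.05 and -1.04 in the Reb1-bound promoters, against -0.94 and -0.98 in the comparison genes. In genes listed for Abf1 alone it was -1.07 and -1.16, lower than in the Reb1-bound promoters. The lower naked DNA signal thus moved in the same direction as the chromatin, and its part in the chromatin difference was not tested. When 1 read was counted per strand position, the ratio of naked DNA was 0.02 and that of the chromatin -0.37.

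**Figure D1:**
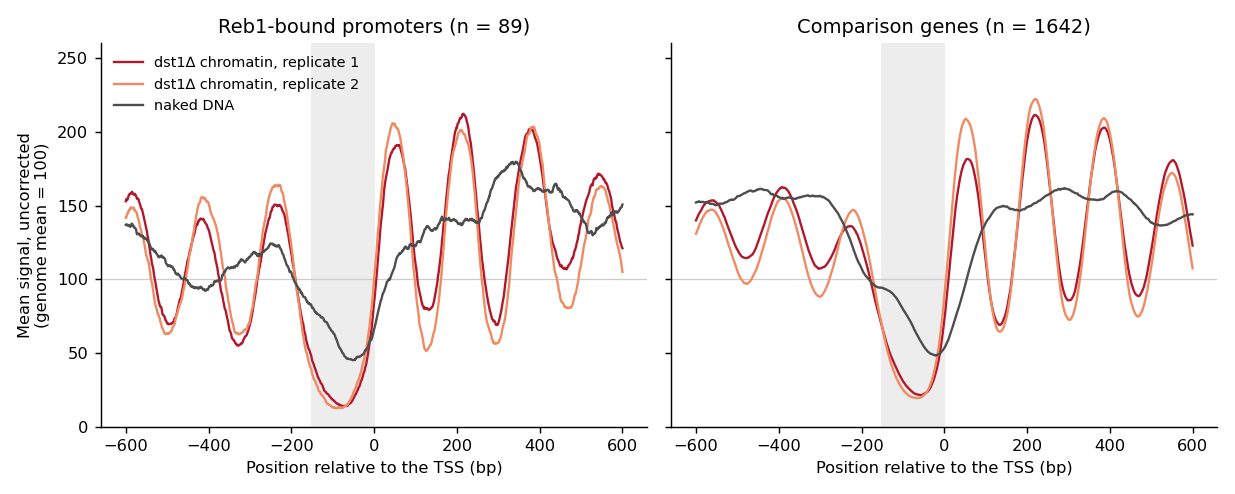
Mean raw signal (genome mean 100) against position relative to the TSS (bp) for the 89 Reb1-bound promoters, left, and the 1642 comparison genes, right, with 1 line per library and the NDR window in grey. Both *dst1∆* replicates dip to 13.7 and 12.4 in the Reb1-bound promoters, against 21.4 and 19.3 in the comparison genes, and the lowest point of naked DNA is 45.1 and 48.2.

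The lowest point of the mean profile lay farther from the TSS in the Reb1-bound promoters. It was at 73 and 91 bp upstream in the *dst1∆* replicates, against 57 and 67 bp in the comparison genes. In naked DNA it was at 51 bp upstream in the Reb1-bound promoters and at 21 bp in the comparison genes. In chromatin of genes listed for Rap1 alone it was at 70 and 87 bp upstream. The lowest points of single promoters differed less between the groups. Their median was 84 and 91 bp upstream in the Reb1-bound promoters, against 82.5 and 86 bp in the comparison genes. When the window was moved to between 200 and 51 bp upstream, the log2 ratio of raw chromatin was -0.52 ± 0.11 (SD, n = 2), a larger deficit than in the NDR window.

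Single promoters differed widely. Across the 89 promoters, raw signal in the NDR window ran from 1.32 to 254 in *dst1∆* replicate 1 (median 17.2) and from 0.257 to 305 in replicate 2 (median 9.61), against 2.16 to 391 in naked DNA (median 29.4). Both replicates were below naked DNA in 58 promoters, both were above it in 19, and 12 had 1 replicate on either side. No share of other genes is set beside these counts. At least 2-fold lower than naked DNA in both replicates, after adding 10 to each signal, were 31 of the 89 (34.8%), against 28.6% of all 1971 genes. The share among the Reb1-bound promoters was thus close to that of all genes. At least 2-fold higher in both replicates was 1 of the 89, against 7.31% of all genes. That gene was *SPE2*, which encodes S-adenosylmethionine decarboxylase of polyamine synthesis, with 55.0 and 103 in *dst1∆* chromatin and 9.68 in naked DNA.

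**Figure D2:**
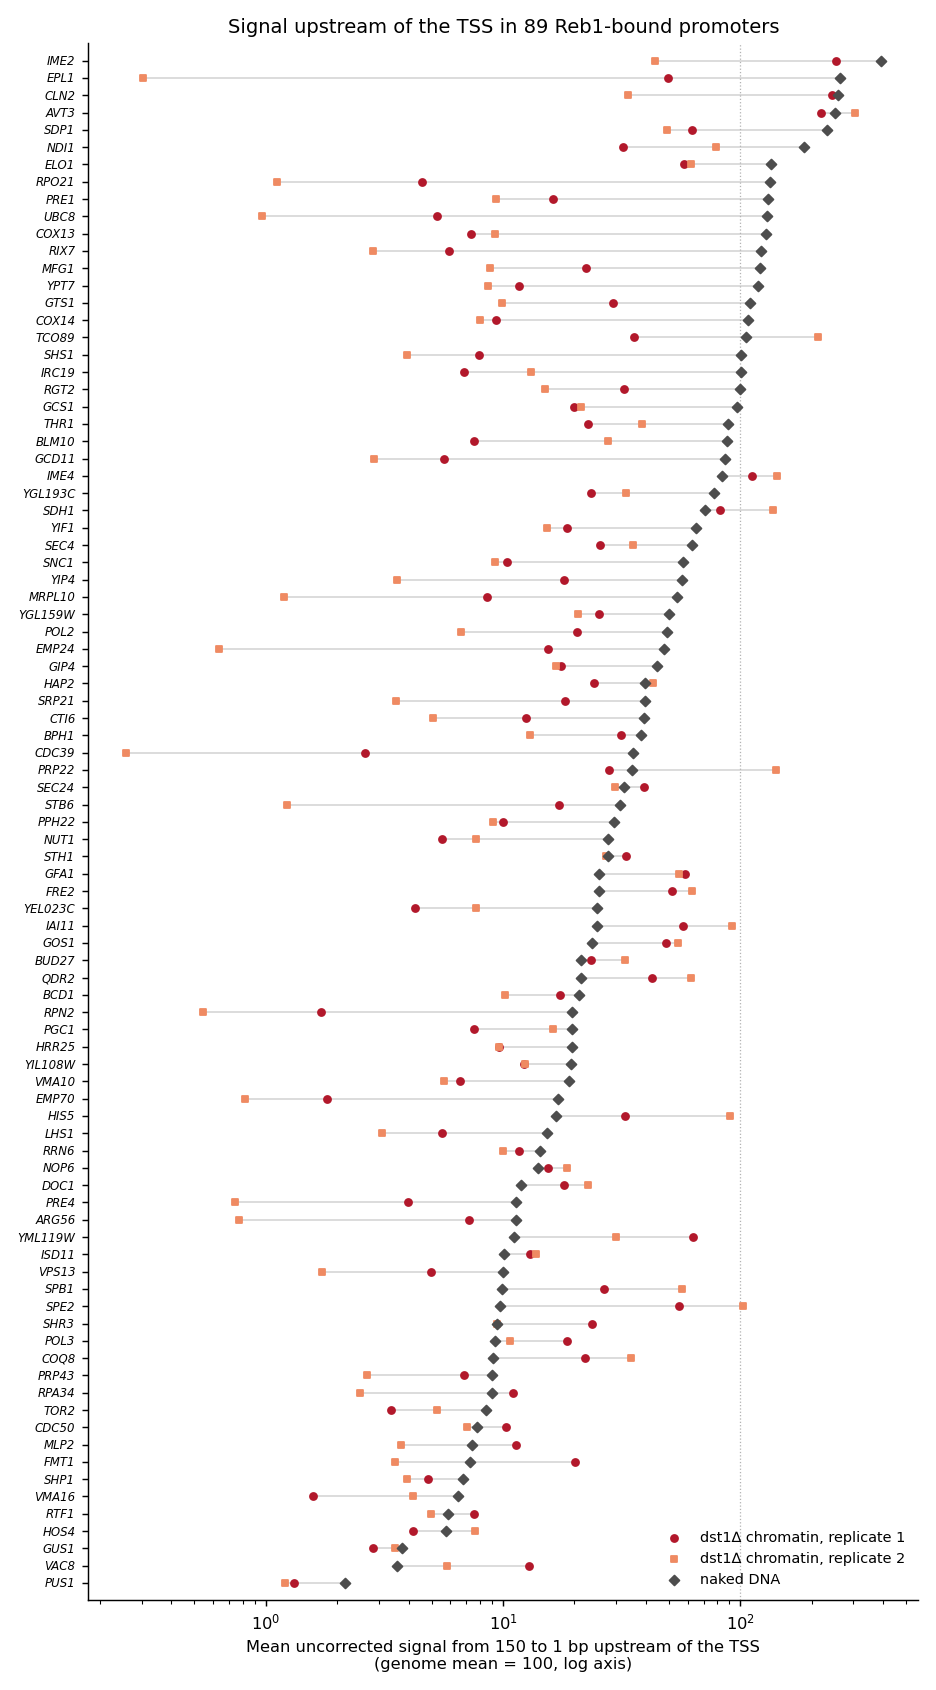
Mean raw signal from 150 to 1 bp upstream of the TSS (log axis, genome mean 100, dotted line) in each of the 89 Reb1-bound promoters, ordered by naked DNA, with a circle for *dst1∆* replicate 1, a square for replicate 2 and a diamond for naked DNA. Both chromatin symbols lie left of the diamond in 58 promoters and right of it in 19.

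A set of promoters was resistant to MNase as bare DNA and nearly empty in chromatin. Naked DNA of at least 100 together with less than 20 in both *dst1∆* replicates was found in 9 of the 89 (10.1%), against 3.65% of all genes, by limits chosen after the values were seen. Of the comparison genes, 3.17% were of this kind. Naked DNA of at least 100 alone was found in 21.3% of the Reb1-bound promoters and 17.3% of the comparison genes. Without the limit on repeated reads, none of the 89 promoters met both conditions, against 53 of the comparison genes. The share was then lower in the Reb1-bound promoters.

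The clearest of these was *RPO21*, the gene for the largest subunit of RNA polymerase II (YDL140C, Crick strand of chromosome IV, TSS at 211165 of sacCer2). It had 4.56 and 1.12 in *dst1∆* chromatin and 134 in naked DNA, with counting intervals of 2.36 to 7.97, 0.135 to 4.04 and 119 to 149. These 95% intervals are exact Poisson limits and cover the counting error only. *UBC8*, for a ubiquitin-conjugating enzyme, had 5.26 and 0.967 in chromatin and 129 in naked DNA. Genes of the respiratory chain were also among them, *COX13* with 7.32 and 9.25 in chromatin against 129 in naked DNA, and *COX14*, which acts in the assembly of cytochrome c oxidase, with 9.30 and 8.00 against 107. *YPT7*, the Rab GTPase of vacuole fusion, had 11.7 and 8.62 in chromatin and 119 in naked DNA. *PRE1*, for a subunit of the proteasome core, had 16.2 and 9.31 in chromatin and 131 in naked DNA. The other 3 were the septin gene *SHS1*, the ribosome assembly gene *RIX7* and *IRC19*. The limits themselves set the 9 apart from naked DNA, so that their distance from it adds nothing.

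In other promoters the bare DNA itself gave almost no fragments. *PUS1*, which encodes a tRNA pseudouridine synthase, had 1.32 and 1.21 in *dst1∆* chromatin and 2.16 in naked DNA, the lowest naked DNA value of the 89 promoters. These values rest on 2 and 1 fragments of chromatin and 3 of naked DNA. *GUS1*, for the glutamyl-tRNA synthetase, had 2.83 and 3.51 in chromatin and 3.73 in naked DNA. *VAC8*, for a vacuolar membrane protein, had 12.9 and 5.79 in chromatin and 3.56 in naked DNA. An empty NDR window in chromatin was therefore no sign of depletion beyond bare DNA at these 3 genes. The lowest chromatin signals, as means of the replicates, were those of *RPN2*, *PUS1* and *EMP70*. *RPN2*, a subunit of the regulatory particle of the proteasome, had 1.71 and 0.544 in chromatin and 19.5 in naked DNA. *EMP70*, of the endomembrane system, had 1.81 and 0.816 in chromatin and 17.1 in naked DNA.

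The highest chromatin signal was that of *AVT3*, for a vacuolar amino acid transporter, with 219 and 305 in *dst1∆* chromatin and 250.4 in naked DNA. The replicates lay on either side of naked DNA. Its lowest point was not upstream but 47 and 50 bp downstream of the listed TSS, and the neighbouring *SDH1* starts 92 bp away on the other strand.

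By absolute difference in signal, the replicates disagreed most at *IME2*, *CLN2* and *TCO89*. *IME2*, the gene for a kinase of meiosis, had 254 and 43.9 in the *dst1∆* replicates and 391 in naked DNA. *CLN2*, for a G1 cyclin, had 243 and 33.7 in the replicates and 259 in naked DNA. Replicate 2 was far below naked DNA at both genes, and replicate 1 was close to it at *CLN2* and below it at *IME2*, where the counting intervals were 228 to 282 for replicate 1 and 364 to 419 for naked DNA. *TCO89*, for a subunit of the TORC1 complex, went the other way, with 35.6 and 213 in chromatin and 106 in naked DNA. *EPL1*, for a subunit of the NuA4 histone acetyltransferase, had 49.5 and 0.302 in the replicates and 262 in naked DNA, so that both were below bare DNA although they differed by a larger factor than those of *IME2* and *CLN2*. Over the 89 promoters, the log2 signals of the 2 replicates in the NDR window had a Pearson correlation of 0.75. That of naked DNA with replicate 1 was 0.46 and with replicate 2 was 0.26. These are descriptions across genes, which share libraries and depth.

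Deep points of the NDR were frequent in the Reb1-bound promoters. The lowest point of the smoothed raw signal was taken from 250 bp upstream to 50 bp downstream of the TSS. It was below 50 in both replicates in all 89, and in 98.4% and 99.2% of the comparison genes in replicates 1 and 2. It was below 5 in both replicates in 63 of the 89 (70.8%), against 48.1% of all genes, 47.1% of the comparison genes, 56.7% of the genes listed for Abf1 alone and 37.4% of those listed for Rap1 alone. The limit of 5 was chosen after the values were seen. Signals below it rest on few fragments and lie near the counting floor. At *EMP70*, with lowest points of 1.27 and 0.0174, the NDR window rested on 5 and 4 fragments. In naked DNA, a lowest point below 5 was less frequent among the Reb1-bound promoters, with 32.6%, against 48.1% of the comparison genes. The median lowest point was 3.20 and 0.392 in the *dst1∆* replicates, against 6.73 in naked DNA. In the comparison genes it was 4.99 and 1.73 in chromatin, against 5.41 in naked DNA. Both replicates were below naked DNA at their lowest point in 68 of the 89 promoters, a count with no share of other genes beside it. The lowest point lay between 150 and 30 bp upstream in both replicates in 72 promoters (80.9%) and in 69.7% of the comparison genes.

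Naked DNA was then subtracted, with negative values set to 0. The mean − 1 signal over all 89 Reb1-bound promoters was above that of the comparison genes. In the − 1 window, which covers the 150 bp upstream of the NDR window, the corrected signal averaged 49.5 and 73.5 in the replicates, against 42.6 and 66.3 in the comparison genes. The log2 ratio was 0.18 ± 0.05 (SD, n = 2). Between the means of raw chromatin it was -0.04, and between those of naked DNA -0.19. The medians of raw chromatin were higher in the Reb1-bound promoters, with 92.4 and 99.9, against 76.3 and 90.6 in the comparison genes. With repeated reads not limited, the log2 ratio of the corrected means was -0.32. At least 2-fold above naked DNA in this window in both replicates were 30 of the 89 (33.7%), against 24.9% of all genes, and at least 2-fold below it were 9, against 10.4%. With 1 read per strand position, 7 of the 89 were above it by this rule, against 177 of the comparison genes, and the share was then lower in the Reb1-bound promoters. With a listed divergent TSS within 600 bp upstream, the corrected signal averaged 65.6 and 91.6, against 50.3 and 75.6 in the comparison genes. Without one it averaged 34.5 and 56.5, below the 37.9 and 60.5 of the comparison genes.

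Peaks and valleys upstream of the NDR were also farther apart in height. In the mean corrected profile, the − 1 peak stood at 75.9 and 109, and the valley upstream of it at 20.1 and 36.4. In the comparison genes, the peak was 56.0 and 90.6 and the valley 28.4 and 35.9. The height of the peak over the valley exceeded that in the comparison genes by 28.2 in replicate 1 and by 18.3 in replicate 2, with a mean of 23.2 ± 7.01 (SD, n = 2). This measure was added after the profiles were seen. With 1 gene of each pair that shares an intergenic region the difference was 13.7 ± 14.8 (SD, n = 2), and the spread then exceeded it. The contrast was larger where a divergent gene lay upstream. With a listed divergent TSS within 600 bp, the height over the valley was 79.5 and 104 in 43 Reb1-bound promoters, against 46.2 and 75.4 in 624 comparison genes. With none, it was 35.9 and 52.5 in 46 Reb1-bound promoters, against 18.4 and 43.7 in 1018 comparison genes. By this height over the valley, the Reb1-bound promoters stood higher in both replicates within each of the 2 kinds of promoter. A − 2 peak was seen 413 and 424 bp upstream, 191 and 198 bp from the − 1 peak.

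**Figure D3:**
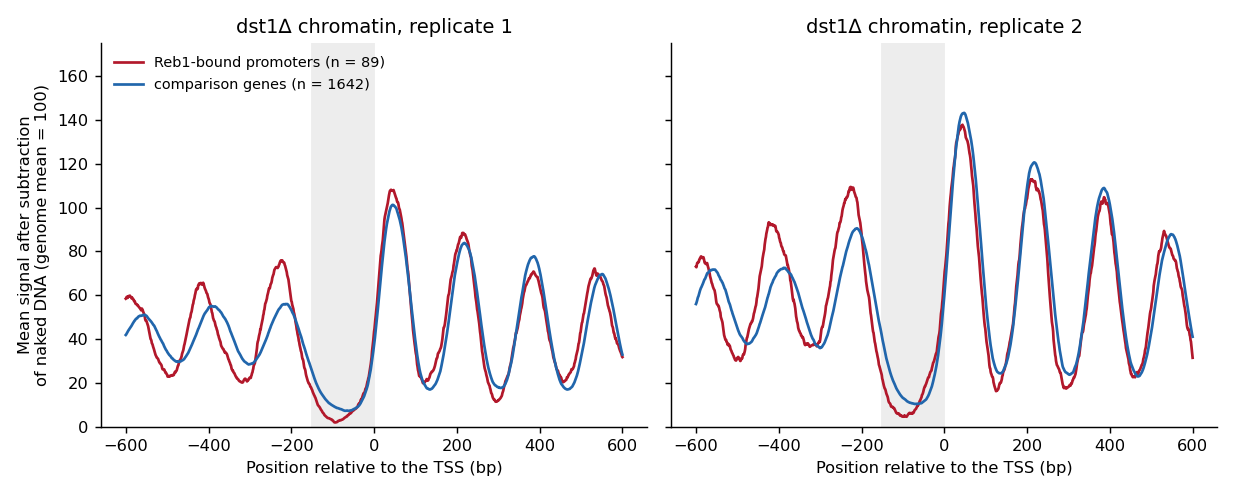
Mean signal after subtraction of naked DNA (genome mean 100) against position relative to the TSS (bp) in *dst1∆* replicate 1, left, and replicate 2, right, for the 89 Reb1-bound promoters and the 1642 comparison genes, with the NDR window in grey. The − 1 peak of the Reb1-bound promoters reaches 75.9 and 109, above the 56.0 and 90.6 of the comparison genes, and the lines run close together downstream of the TSS.

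By the mean of the replicates, the highest corrected − 1 signals were at *MRPL10*, for a protein of the mitochondrial ribosome, and at the divergent genes *HRR25*, for a casein kinase, and *PGC1*, for a phospholipase. *MRPL10* had a corrected − 1 signal of 91.2 and 308 in the replicates. *HRR25* had 87.9 and 282, and *PGC1* had 85.9 and 273. The − 1 windows of *HRR25* and *PGC1* overlap in the region between their TSSs, so that their values are not independent. The rank of these 3 rests on replicate 2, since in replicate 1 *VMA10* had the highest value, 229. No corrected − 1 signal was left in either replicate at *CLN2*, at *RGT2*, for a glucose sensor, at *BUD27*, at *QDR2* and at *VMA16*, for a subunit of the vacuolar ATPase. At *RGT2* the peak next to the + 1 nucleosome lay 363 and 342 bp upstream.

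The − 1 nucleosome lay farther upstream and the + 1 nucleosome at the usual place. The median centre of the − 1 peak was 242 and 245 bp upstream, against 222 and 225 bp in the comparison genes. That of the + 1 peak was 47 and 46 bp downstream, against 47 and 48 bp. The median distance between the 2 peaks was 285 and 286 bp (83 and 78 genes), against 268.5 and 272 bp, and the difference was 15.2 ± 1.77 bp (SD, n = 2). The difference was smaller in 2 subsets. Among genes with a divergent neighbour the distance was 270 and 276 bp in the Reb1-bound promoters, against 267 and 271 bp in the comparison genes. In the 58 Reb1-bound promoters listed for neither Abf1 nor Rap1 it was 272 and 275 bp, against 264 and 268 bp in the comparison genes listed for neither.

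**Figure D4:**
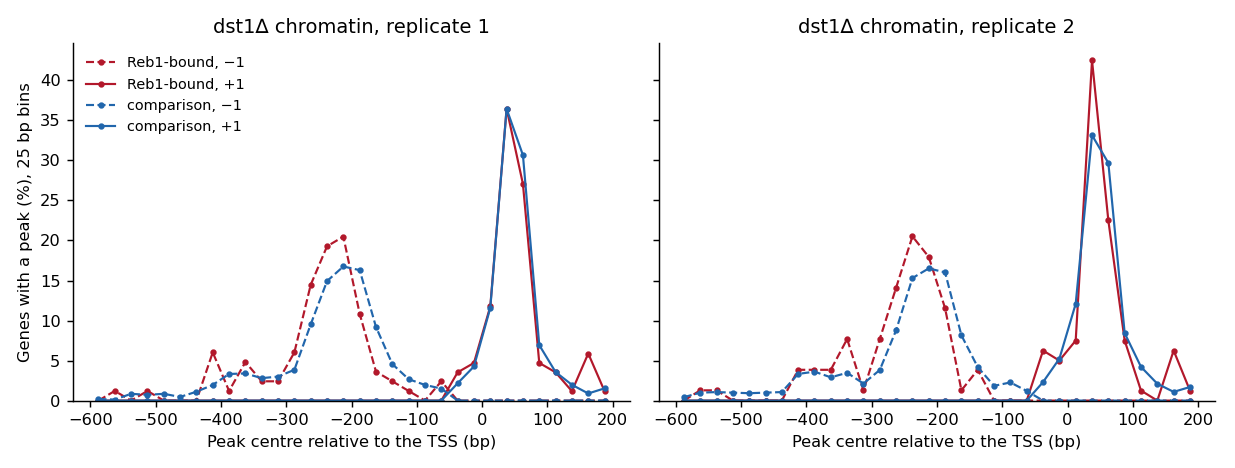
Share of genes (%) with a − 1 peak (dashed) or a + 1 peak (solid) in each bin of 25 bp, against the position of the peak centre relative to the TSS (bp), in *dst1∆* replicate 1, left, and replicate 2, right. The + 1 peaks of Reb1-bound promoters and comparison genes overlie each other, with medians of 47 and 46 against 47 and 48 bp downstream, and the − 1 peaks of the Reb1-bound promoters lie farther upstream, at 242 and 245 against 222 and 225 bp.

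Peak centres of single promoters were largely shared by the replicates, and lowest points less so. The + 1 centres differed by at most 20 bp in 68 of 79 promoters with a peak in both (86.1%), against 88.9% of the comparison genes. The − 1 centres did so in 63 of 76 (82.9%), against 76.1%. For the lowest point of the raw signal it was 52 of 89 (58.4%), against 55.9%. The width of the NDR, taken as the stretch of raw signal below 50 around the lowest point, had a median of 164 and 173 bp, against 165 and 163 bp in the comparison genes. The difference of 4.50 ± 7.78 bp (SD, n = 2) was smaller than the spread between the replicates. By the mean of the replicates, *GOS1*, for a SNARE of the Golgi, had the narrowest NDR with 86 and 94 bp, followed by *IAI11* with 100 and 93 bp and *COQ8* with 121 and 98 bp. In replicate 1 alone, *CLN2* was narrower, with 14 bp. By the same mean, the widest were those of *EMP70*, with 358 and 528 bp, *STB6*, with 510 and 375 bp, and *ARG56*, of arginine synthesis, with 399 and 361 bp. The widths of *ARG56* differed less between the replicates than those of the other 2.

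The + 1 nucleosome was similar in height to that of the comparison genes. In the + 1 window, the first 150 bp of the gene, the corrected signal averaged 62.7 and 77.9, against 58.7 and 84.8, a log2 ratio of -0.01 ± 0.15 (SD, n = 2). The replicates differed in direction, with 0.10 in replicate 1 and -0.12 in replicate 2. At least 2-fold above naked DNA in both replicates were 23 of the 89, against 34.6% of all genes, and at least 2-fold below it were 0, against 4.72%. The count of 23 became 41 without replicate 1, 36 without replicate 2 and 5 with 1 read per strand position. These are counts by a fold limit, with no test behind them. By the mean of the replicates, *COX14* had the highest corrected + 1 signal, with 140 and 229.7, followed by *IRC19*, with 119 and 173, and *PRE1*, with 71.5 and 219. In replicate 1 alone, *BCD1* was higher, with 221. The + 1 fuzziness, the SD of position around the peak, averaged 25.3 and 25.2 bp, against 25.9 and 26.0 bp, a difference of -0.74 ± 0.10 bp (SD, n = 2). The corrected + 1 signals of the replicates correlated weakly over the 89 promoters, with a Pearson coefficient of 0.25 on the log2 scale, against 0.74 in the − 1 window. Single + 1 values were therefore less repeatable than single − 1 values.

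Nearly as many Reb1-bound genes start back to back with another gene as do not. A listed divergent TSS within 600 bp was found for 43 of the 89 (48.3%), against 38.0% of the comparison genes, and 14 pairs consisted of 2 Reb1-bound genes that share 1 intergenic region. The 28 genes of these pairs are thus not independent of each other. Between the TSSs of a pair lay 91 to 411 bp, with a median of 211 bp. Between the TSSs, both *dst1∆* replicates were below naked DNA in 9 pairs and above it in 4. These counts have no share of other divergent pairs beside them, so that they describe these pairs only.

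By the mean of the replicates, the emptiest region was the 115 bp between *SHR3*, for a chaperone of amino acid permeases, and *NOP6*, of small subunit assembly, on chromosome IV (78245 to 78361), with 5.48 and 4.14 in *dst1∆* chromatin and 9.25 in naked DNA. Next was that between *YIP4* and *EMP24*, both of vesicle traffic, with 16.3 and 3.00 in chromatin and 47.3 in naked DNA, the emptiest in replicate 2 alone. It was followed by that between *IRC19* and *RIX7* on chromosome XII (73197 to 73393), with 9.36 and 12.2 in chromatin and 99.9 in naked DNA. Here the bare DNA was at about the genome mean and both replicates were far below it. The region between *BUD27* and *EPL1* had the highest naked DNA signal of the pairs, 173, with 45.1 and 21.0 in chromatin.

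**Figure D5:**
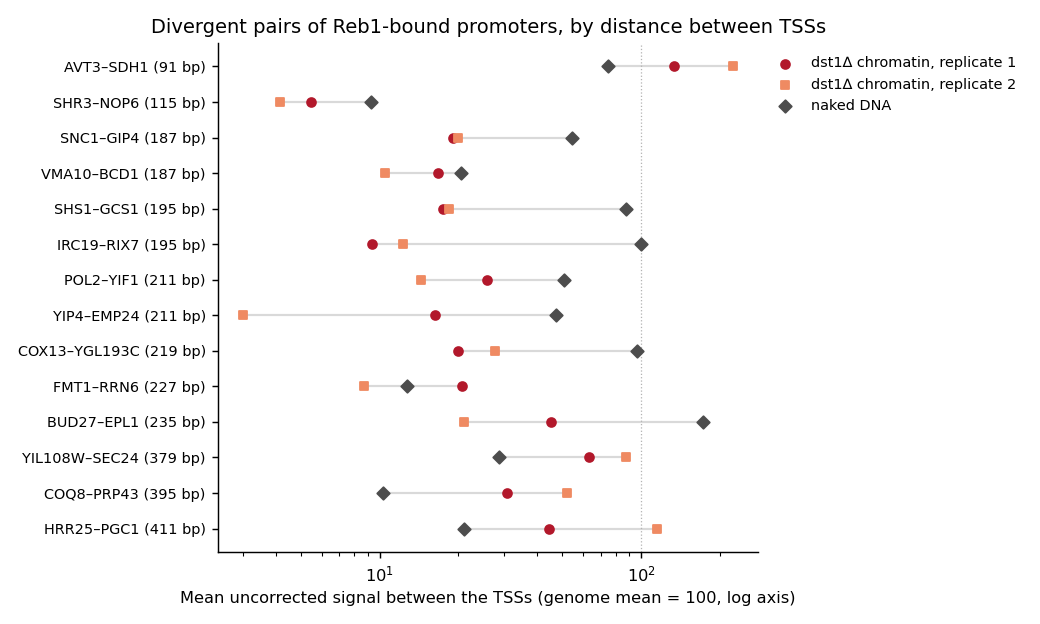
Mean raw signal between the TSSs (log axis, genome mean 100, dotted line) of the 14 divergent pairs of Reb1-bound genes, ordered by the distance between the TSSs given beside the names, with a circle for *dst1∆* replicate 1, a square for replicate 2 and a diamond for naked DNA. Both replicates lie left of the diamond in 9 pairs and right of it in the 3 widest pairs and the closest.

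The 4 pairs with chromatin above naked DNA were the 3 with the greatest distance and the 1 with the least. The values are means over the whole region between the TSSs, which in the 3 widest pairs takes in more than the NDR windows. *HRR25* and *PGC1*, with 411 bp between them, had 44.4 and 115 in *dst1∆* chromatin and 21.1 in naked DNA. *COQ8*, of coenzyme Q synthesis, and *PRP43*, an RNA helicase, with 395 bp between them, had 30.7 and 52.1 in chromatin and 10.3 in naked DNA. In the NDR window alone, chromatin was below naked DNA at *HRR25* (9.59 and 9.61, against 19.5) and above it at *COQ8* (22.2 and 34.7, against 9.05). *SEC24*, of the COPII coat, and *YIL108W*, with 379 bp between them, had 63.3 and 87.6 in chromatin and 28.6 in naked DNA. *AVT3* and *SDH1*, for a subunit of succinate dehydrogenase, with 91 bp between them, had 134 and 225 in chromatin and 74.5 in naked DNA.

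The Reb1-bound genes cover several housekeeping functions. Of the 4 genes of the proteasome, *BLM10*, *PRE1* and *RPN2* were at least 2-fold below naked DNA in the NDR window of both replicates. As above, 10 was added to each signal for this rule. *PRE4* missed the limit only because of the added 10, with 3.96 and 0.741 in *dst1∆* chromatin and 11.4 in naked DNA. Of the 13 genes of secretion and vesicle traffic, 7 were below it by this rule, among them *SNC1*, a v-SNARE of secretory vesicles, with 10.4 and 9.27 in chromatin and 57.5 in naked DNA. *SEC4*, the Rab GTPase of exocytosis, was not among them, with 25.5 and 35.4 in chromatin and 62.8 in naked DNA.

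Of the 8 mitochondrial genes, 4 were below naked DNA by this rule, *COX13*, *COX14*, *MRPL10* and *NDI1*. *NDI1*, for the internal NADH dehydrogenase, had 31.9 and 78.7 in *dst1∆* chromatin and 186 in naked DNA. Of the 7 genes of DNA and RNA polymerases and their factors, 2 were, *RPO21* and *NUT1*, a Mediator subunit. *POL2*, for the catalytic subunit of DNA polymerase epsilon, was not, with 20.6 and 6.64 in chromatin and 49.3 in naked DNA. Of the 4 chromatin factors 2 were, *EPL1* and *CTI6*, and *STH1*, the ATPase of the RSC remodeler, had 32.9 and 27.1 in chromatin and 27.7 in naked DNA. Of the 6 genes of RNA helicases and ribosome assembly, *RIX7* was. None of these lists held a gene at least 2-fold above naked DNA in both replicates, and all of them are too short to be set against the 28.6% of all genes.

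Reb1 was the only factor listed for 58 of the 89 promoters, Abf1 was also listed for 15, Rap1 for 18 and both for 2. The − 1 nucleosome of the 3 kinds differed in height. The corrected − 1 signal averaged 55.1 and 83.2 where Reb1 was listed alone, 36.02 and 60.0 with Abf1 and 41.1 and 52.8 with Rap1. In comparison genes listed for neither Abf1 nor Rap1 it was 42.9 and 70.9. It was 41.1 and 59.1 in those with Abf1 and 42.2 and 50.4 in those with Rap1. The order in each replicate was thus also found in genes not listed for Reb1, although their values in replicate 1 lay close together. At least 2-fold below naked DNA in the NDR window were 8 of the 15 promoters with Abf1 (53.3%), 4 of the 18 with Rap1 (22.2%) and 20 of the 58 with neither (34.5%). The shares in the comparison genes were 32.0% with Abf1, 26.2% with Rap1 and 27.1% with neither. These groups are small and were not tested against each other.

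Of the 89 promoters, 33 were in the list of fragile − 1 nucleosomes and 32 in the part of the list of stable ones used here, both of which the study took from earlier work. Their NDRs differed in width, with a median of 201 and 205 bp in the fragile promoters, against 141.5 and 164 bp in the stable ones. In the comparison genes the medians were 201 and 209 bp in the fragile promoters, against 152 and 145 bp in the stable ones. A TATA element was listed for 12 of the 89 promoters in the part used. Their NDR window averaged 50.4 and 32.7 in *dst1∆* chromatin and 111 in naked DNA.

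The genes listed for the other general regulatory factors had other values. The log2 ratio to the comparison genes in the NDR window of raw *dst1∆* chromatin was -0.31 ± 0.04 in the Reb1-bound promoters, 0.02 ± 0.03 in the 270 genes listed for Abf1 alone and 0.45 ± 0.13 in the 211 listed for Rap1 alone (SD, n = 2 each). In naked DNA it was -0.23 in the Reb1-bound promoters, 0.18 for Abf1 alone and 0.33 for Rap1 alone. The value of the chromatin for Abf1 alone was within the spread of the replicates. By medians, the NDR window of raw chromatin had 17.2 and 9.61 in the Reb1-bound promoters, 18.0 and 14.6 for Abf1 alone and 27.6 and 23.6 for Rap1 alone, against 19.8 and 17.8 in the comparison genes, so that Abf1 alone was then below the comparison genes too. The corrected − 1 signal gave a log2 ratio of 0.18 ± 0.05 in the Reb1-bound promoters, -0.04 ± 0.01 for Abf1 alone and -0.14 ± 0.23 for Rap1 alone. The distance between the − 1 and + 1 peaks exceeded that of the comparison genes by 15.2 ± 1.77 bp in the Reb1-bound promoters, by 3.25 ± 0.354 bp for Abf1 alone and by 14.2 ± 2.47 bp for Rap1 alone. The distances for Reb1 and Rap1 differed by less than the spread of the replicates. The genes listed for Abf1 alone and Rap1 alone are also part of the comparison genes, and these differences carry no test.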

How the data were processed

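Per the labels and the methods of the study, the authors mapped reads to sacCer2 by means of GEM with at most 3 mismatches and used only unambiguous ones. The deposited files list read positions and strands, repeated reads included, with a display score of 1000 in each line, which was not used. Here, reads per strand position were limited at a Poisson probability of 1e-10 (9, 9 and 11 reads in *dst1∆* replicates 1 and 2 and naked DNA), which kept 70.5%, 72.5% and 65.2%. Each read counted as a fragment centred 73 bp downstream of its start, spread over 81 bp, and libraries were scaled to a mean of 100. Intervals (95%) cover counting error only, since reads carried no molecular identifiers. The correction took naked DNA away and raised negative values to 0.

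Peaks of the corrected signal (Gaussian smoothing, SD 20 bp) had to reach 20 and lie 100 bp apart. The first peak from 50 bp before to 200 bp after the TSS was the + 1 nucleosome, and the nearest one upstream, up to 600 bp, the − 1 nucleosome. Fold limits apply to signals with 10 added. Genes were named by rank (3 highest and lowest per measure, 3 emptiest pairs) and from role lists. The other resistant promoters, *SPE2*, *QDR2*, *VMA10*, *BCD1* and the remaining pairs were chosen after their values were seen. Members and lists were chosen with earlier results of these data known. Symbols came from the RefSeq table of assembly R64, which matched all 89 genes. The first 1999 rows of the TSS list were used, and the lists of stable and TATA genes were used in part. The peak steps were tested on simulated data. Python 3.11.15, numpy 2.4.6, scipy 1.17.1 and pandas 2.3.3 were used.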

Additional observations from a re-analysis of the deposited data

Results flagged for a closer look

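By means over genes in the − 1 window, raw *dst1∆* chromatin of the Reb1-bound promoters was above naked DNA in both replicates, and that of the comparison genes and of the genes listed for Abf1 alone or Rap1 alone was below it. The log2 ratio of chromatin to naked DNA was 0.043 as the mean of the replicates (0.01 and 0.07), against -0.12 and -0.10 in the comparison genes, -0.24 and -0.26 for Abf1 alone and -0.26 and -0.61 for Rap1 alone. The contrast in direction is absent from the medians, where chromatin was above naked DNA in the Reb1-bound promoters (92.4 and 99.9, against 44.0), in the comparison genes (76.3 and 90.6, against 48.4) and for Abf1 alone (84.4 and 95.3, against 63.3), and for Rap1 alone in replicate 1 (87.0 and 69.6, against 77.3). The difference between these groups was not tested.

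The second *dst1∆* replicate held 1285 reads of mitochondrial DNA, against 0 in the first replicate and 0 in naked DNA. These reads were used in no comparison.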

How the results depend on the processing

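Values are Reb1-bound promoters against comparison genes, as log2 ratios for signals and in bp for positions. Where a value moved, the cause was not tested. Depth limits the emptiest promoters, since *PUS1* rests on 2 and 1 fragments of chromatin and 3 of naked DNA. No paired analysis was possible because there was 1 naked DNA library and the replicate numbers pair no samples. The search for a Reb1 motif was not run. Counts of 9, 63 and the height over the valley, and alternatives tried on them, were added after the values were seen, as was the restriction to divergent promoters.

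The log2 ratio of naked DNA in the NDR window (-0.23) was -0.40 with no limit on repeated reads, 0.016 with 1 read per position, -0.16 with the whole nucleosome length counted, -0.053 with medians over genes and -0.29 in promoters listed for neither Abf1 nor Rap1, here set against all comparison genes. That of raw chromatin there (-0.31) was -0.40, -0.37, -0.22, -0.55 and -0.23 under the same alternatives, -0.52 from 200 to 51 bp upstream, -0.19 with divergent promoters only and -0.34 to -0.28 with 1 replicate left out.

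The corrected + 1 ratio (-0.01) was 0.14 with medians, 0.011 with no correction, 0.018 with neither factor, -0.24 with divergent promoters and -0.12 to 0.10 with 1 replicate. The corrected − 1 ratio (0.18) was -0.32 with no limit, 0.12 with 1 read, 0.33 scaled to the genome median, 0.41 with medians, -0.041 with no correction, 0.10 as a ratio to naked DNA, 0.076 with a subtraction weight of 0.5, 0.092 with 1 gene per divergent group, 0.35 with neither factor, 0.33 with divergent promoters and 0.15 to 0.22 with 1 replicate.

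The NDR width (4.50 bp) was -4.50 with no limit, -12 with whole length, 12.75 scaled to the median, -11.7 with means, 12.75 and -5.75 at thresholds of 30 and 70, -1.75 with neither factor and -1 to 10 with 1 replicate. The − 1 to + 1 distance (15.25 bp) was 13 with no limit, 18.75 with 1 read, 6.75 with whole length, 21.5 scaled to the median, 13.25 with no correction, 12.5 as a ratio and with weight 0.5, 7.25 with a peak height of 50, 19.25 with 1 gene per group, 3.25 with neither factor, 4 with divergent promoters and 14 to 16.5 with 1 replicate. The fuzziness (-0.74 bp) was -0.35 with no limit, -1.03 with 1 read, -0.49 with cross-correlation lengths, 0.082 with whole length, -0.38 scaled to the median, -0.64 at equal depth, -0.46 with medians, -2.07 with no correction, -0.34 as a ratio, -1.36 with weight 0.5, -1.51 with neither factor and -0.81 to -0.67 with 1 replicate.

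Of the counts, the 31 promoters below naked DNA became 18 with whole length, 48 scaled to the median, 12 at 4-fold, 20 (of 58) with neither factor and 34 to 39 with 1 replicate. In percentage points, the share of Reb1-bound promoters minus that of comparison genes was 6.82 here. It became 6.28, 5.15, 4.10, 6.47 and 7.08 to 7.58 in that order. The 30 promoters above it in the − 1 window became 7 with 1 read, 19 scaled to the median, 5 at 4-fold and 34 to 41 with 1 replicate, and the 23 in the + 1 window 5, 12, 5 and 36 to 41, 42 at 1.5-fold and 14 with neither factor. The difference in share for the − 1 window (8.43) became -2.91, 9.11, 2.39 and 4.47 to 7.57. For the + 1 window (-8.87) it became -5.65, -3.14, -0.17, -4.72 to -3.03, -2.87 and -10.6. The 9 resistant and empty promoters became 0 with no limit, 2 with whole length, 5 with neither factor and 9 to 12 with 1 replicate. Their difference in share (6.95) became -3.23, 1.82, 5.45 and 6.21 to 6.36. The 63 deep lowest points became 31 with 1 read, 25 with whole length, 41 scaled to the median, 40 with neither factor and 63 to 85 with 1 replicate. Their difference in share (23.7) became 12.3, 7.38, 17.2, 21.9 and 20.7 with either replicate left out. The + 1 peak over the NDR exceeded that of the comparison genes by 6.28, by -16.5 with no limit, 30.3 with medians, 48.6 as a ratio, 15.9 with neither factor and 0.36 to 12.2 with 1 replicate. For the − 1 peak over its valley (23.2) the values were 11.4 with 1 read, 14.2 with whole length, 35.8 scaled to the median, 31.5 with medians, 54.6 with no correction, 61.6 as a ratio, 34.8 with weight 0.5, 13.7 with 1 gene per group, 44.3 with neither factor, 31.1 with divergent promoters and 18.3 to 28.2 with 1 replicate.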

Other observations

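Downstream of the + 1 nucleosome, the Reb1-bound genes had the array of the comparison genes. In the mean corrected profile, the + 2 peak reached 88.4 and 113 at 216 and 210 bp downstream of the TSS, against 83.9 and 121 at 218 and 217 bp. The + 3 peak reached 70.8 and 105 at 385 and 386 bp, against 77.8 and 109 at 387 and 386 bp. At least 2-fold above naked DNA in the + 2 window, the second 150 bp of the gene, in both replicates, were 20 of the 89 genes, against 21.3% of all genes. Among them were *RPO21*, *RGT2* and *VPS13*.

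In the − 2 window, the 300 bp upstream of the − 1 window, naked DNA averaged 110 in the Reb1-bound promoters and 156 in the comparison genes, a log2 ratio of -0.50. Raw *dst1∆* chromatin averaged 104 and 106, against 137 and 125. After the subtraction of naked DNA the log2 ratio was -0.02 ± 0.06 (SD, n = 2), so that the 2 kinds of promoter did not differ beyond the spread of the replicates.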
